A study of Mus musculus with 2 samples.

Results

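The genes of 3 vascular signalling systems were examined in the embryonic mouse heart: the angiopoietins with their Tie receptors (Angpt1, Angpt2, Tek, Tie1), apelin with its receptor (Apln, Aplnr), and adrenomedullin with its receptor subunits (Adm, Calcrl, Ramp2, Ramp3). The 10 genes were chosen by name, for their place in these systems and not by a measured value, and they are 10 of the 43346 gene rows measured. Earlier results of these data were known when the genes were chosen. Total RNA of single hearts from B6NCrl mice, a C57BL/6 substrain, was sequenced at embryonic day 14.5, with 1 library per heart. The labels call the libraries biological replicates 2 and 1. They were collected 2 days apart, replicate 2 after replicate 1, so embryo, library and collection day cannot be told apart. The sex of both is labelled as pooled male and female, which conflicts with a single heart per library and is not resolved here. The RNA was extracted with the mirVana kit, 10 ng of RNA above 200 nt was used per library, and spike-in RNAs were added. No treatment or mutant is part of the series, so the comparisons are between genes and between the hearts.

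The Tie receptors are receptor tyrosine kinases of endothelial cells. Angiopoietin 1 activates Tek (also called Tie2) and stabilises vessels, while angiopoietin 2 acts on the same receptor as a weaker or opposing ligand where vessels are remodelled, and Tie1 is a partner of Tek that binds no angiopoietin on its own with high affinity. Apelin is a secreted peptide whose G protein-coupled receptor guides endothelial and heart progenitor cells, and adrenomedullin is a vasodilator peptide read by Calcrl, which needs a receptor activity modifying protein (Ramp) at its side to reach the cell surface and to choose its ligand. Mouse embryos that lack Tek, Angpt1, Adm, Calcrl or Ramp2 die in midgestation with faults of the heart or vessels.

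The sequences that bear on the values below are those of a processed peptide and of a transcript boundary. Active apelin is cut from the end of its precursor, so the reads of Apln count the precursor and not the peptide. The frame of Apln-201, the transcript counted for the gene, has 77 codons, and its last 13, on chromosome X from 48028302 to 48028340 on the minus strand, encode apelin-13, the short active form. They are shown with the codon of its first residue, a glutamine, in capitals.
Apln-201 last codons: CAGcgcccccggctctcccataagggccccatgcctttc
For Ramp2, the abundant coding model and the abundant non-coding model differ at the start of exon 2, which begins at base 101247055 of chromosome 11 on the plus strand. In both lines the first 15 bases of exon 2 are in capitals. The 15 bases before them are the end of exon 1 in Ramp2-204, and the end of intron 1, with the AG of a splice acceptor, in Ramp2-205.
Ramp2-204: tgctgctgctgggcgCTGTCTCAGCCTCTC
Ramp2-205: catttctttatacagCTGTCTCAGCCTCTC

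All 10 genes were detected at 1 TPM or more in both hearts, against 31.5% of all gene rows. TPM is a level per transcript length, scaled to the same total in each library. The order by mean level ran from Ramp2 at 219 TPM through Tek, Calcrl, Angpt1, Tie1, Aplnr, Adm, Apln and Angpt2 to Ramp3 at 2.42 TPM. Calcrl and Angpt1 overlapped between the hearts, as did Angpt1 and Tie1, and Angpt2 and Ramp3. By TPM, all other neighbours in the order were apart in both hearts. The deposited 95% bounds still overlapped in replicate 2 for Tek (42.6 to 45.8 TPM) and Calcrl (38.7 to 45.1 TPM). In the same heart they also overlapped for Apln (3.12 to 4.03 TPM) and Angpt2 (3.02 to 4.36 TPM). Aplnr lay above its ligand, and Calcrl and Ramp2 lay above Adm, whereas Angpt1 lay among the Tie receptors. Ramp2 stood above 95.5% of the 13635 detected genes and Tek above 78.6%, whereas Angpt2 stood above 12.5% and Ramp3 above 11.3%.

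**Figure D1:**
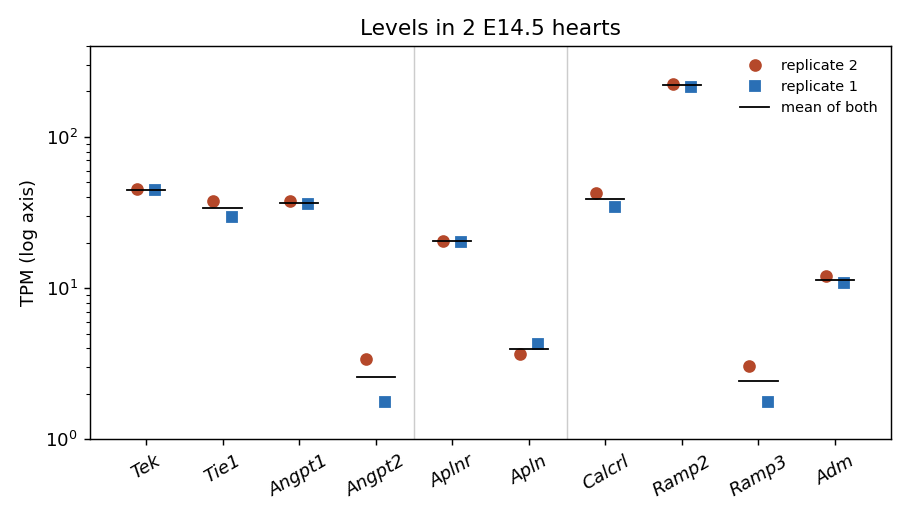
TPM (log axis) of the 10 genes in each heart, circles for replicate 2 and squares for replicate 1, with a line at the mean of both. Grey lines part the angiopoietin-Tie, apelin and adrenomedullin genes. Ramp2 lies above all others, and Angpt2 and Ramp3 are the lowest and the most unequal between the hearts.

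Tek, the angiopoietin receptor, was at 44.9 TPM in replicate 2 and 44.4 TPM in replicate 1 (44.7 ± 0.382, SD, n = 2). Tek spans bases 94739289 to 94874976 of chromosome 4 in GENCODE M21 on GRCm38, the annotation used for all positions of genes. The hearts gave nearly the same level. Tie1 was at 37.8 TPM in replicate 2 and 29.7 TPM in replicate 1 (33.8 ± 5.76). It also lies on chromosome 4, from 118471191 to 118490061. The level of Tie1 was below that of Tek in both hearts, by a log2 ratio of -0.25 in replicate 2 and -0.58 in replicate 1. Of the summed TPM of both receptors, Tek held 54.3% in replicate 2 against 59.9% in replicate 1.

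Angpt1, the activating ligand, was at 37.6 TPM in replicate 2 and 36.1 TPM in replicate 1 (36.8 ± 1.096), on chromosome 15 from 42424723 to 42676977. In the embryonic heart this ligand is known to come from the myocardium and from cells around vessels. Angpt2, made mainly by endothelial cells, was at 3.41 TPM in replicate 2 and 1.77 TPM in replicate 1 (2.59 ± 1.16), on chromosome 8 from 18690263 to 18741562. The heart's angiopoietin RNA was therefore mostly Angpt1, at 91.7% of the summed TPM of both ligands in replicate 2 and 95.3% in replicate 1. Angpt1 was 11.0-fold above Angpt2 in replicate 2 and 20.4-fold above it in replicate 1, a mean log2 ratio of 3.91 ± 0.63. Tek exceeded Angpt1 1.19-fold in replicate 2 and 1.23-fold in replicate 1. That order rests on summing all transcripts of Tek: its leading transcript alone was below Angpt1, at a mean log2 ratio of -0.20.

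Aplnr, the apelin receptor, was at 20.6 TPM in replicate 2 and 20.2 TPM in replicate 1 (20.4 ± 0.283), on chromosome 2 from 85136225 to 85139923. Apln was at 3.65 TPM in replicate 2 and 4.26 TPM in replicate 1 (3.96 ± 0.431), on chromosome X from 48025146 to 48034853. The receptor was 5.65-fold above its ligand in replicate 2 and 4.75-fold in replicate 1. A second ligand of Aplnr, the early embryonic peptide encoded by Apela, was at 5.60 TPM in replicate 2 against 4.13 TPM in replicate 1. Apln held 39.5% of the summed TPM of both ligands in replicate 2 and 50.8% in replicate 1. In replicate 1 the deposited 95% bounds of both ligands overlapped, 3.67 to 4.65 TPM for Apln and 3.36 to 5.51 TPM for Apela. The fold of Apela between the hearts, 1.29 (0.951 to 1.76), held equality.

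Ramp2, the subunit that turns Calcrl into an adrenomedullin receptor, was at 223 TPM in replicate 2 and 215 TPM in replicate 1 (219 ± 5.17), on chromosome 11 from 101246028 to 101259546. Ramp3, which also gives an adrenomedullin receptor, was at 3.06 TPM in replicate 2 against 1.77 TPM in replicate 1 (2.42 ± 0.912), on chromosome 11 from 6658521 to 6677475. Ramp1, the subunit of the receptor for calcitonin gene-related peptide (CGRP), was at 43.2 TPM in replicate 2 against 44.1 TPM in replicate 1. Of the summed TPM of the 3 Ramp genes, Ramp2 held 82.8% in replicate 2 and 82.4% in replicate 1. Ramp2 was 72.8-fold above Ramp3 in replicate 2 and 122-fold in replicate 1, and it exceeded Ramp1 5.15-fold in replicate 2 and 4.88-fold in replicate 1.

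Calcrl, the receptor that all Ramps share, was at 42.8 TPM in replicate 2 and 34.6 TPM in replicate 1 (38.7 ± 5.78), on chromosome 2 from 84330626 to 84425411. Its level was below that of Ramp2 in both hearts, by log2 ratios of -2.38 in replicate 2 and -2.64 in replicate 1. Calcr, the calcitonin receptor that can also pair with Ramps, was at 0.39 TPM in replicate 2 against 0.79 TPM in replicate 1, so of the summed TPM of both receptors Calcrl held 99.1% in replicate 2 against 97.8% in replicate 1. Adm, the ligand, was at 12.0 TPM in replicate 2 and 10.8 TPM in replicate 1 (11.4 ± 0.877), on chromosome 7 from 110627661 to 110629820. Calcrl exceeded Adm 3.56-fold in replicate 2 and 3.22-fold in replicate 1. Among the 4 peptides that Calcrl receptors bind, Adm led with 66.4% of the summed TPM in replicate 2 and 72.0% in replicate 1. Calca, which encodes CGRP and calcitonin, followed at 5.82 TPM in replicate 2 against 3.77 TPM in replicate 1. Adm2 was at 0.20 TPM in replicate 2 against 0.41 TPM in replicate 1, and Calcb had 1 count in replicate 2 and 0 in replicate 1, where 0 allows up to 3 counts.

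**Figure D2:**
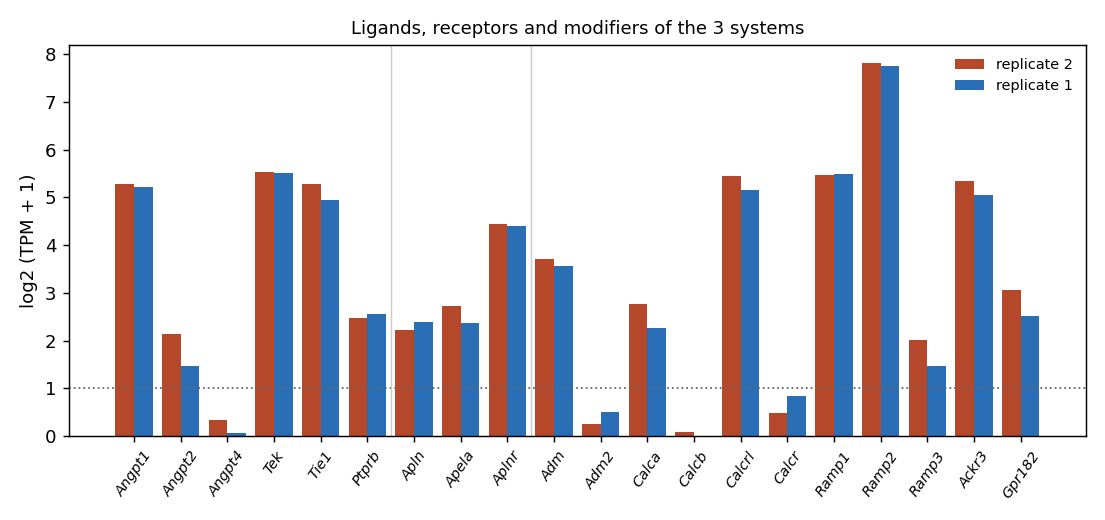
Level as log2 (TPM + 1) of the ligands, receptors and modifiers of the 3 systems in replicate 2 and replicate 1, with grey lines between the systems and a dotted line at 1 TPM. Angpt4, Adm2, Calcb and Calcr lie under 1 TPM in both hearts, and Ramp2 at 223 TPM in replicate 2 against 215 TPM in replicate 1 is the highest.

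The hearts were compared gene by gene with counts scaled by TMM, a library scaling that takes most genes as equal. A fold is replicate 2 over replicate 1, and its exact 95% interval covers counting error only. A gene was called where the interval left out equality, among the 11958 genes whose counts averaged 100 or more. With 1 library per heart this says that the libraries differ beyond counting, not that embryos do, and no p-value can be given. Ramp3 had 73 counts in replicate 2 and 42 in replicate 1 and missed the minimum.

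Of the other 9 genes, 3 were higher in replicate 2 (Angpt2, Tie1 and Calcrl), where 17.4% of all genes were, and 1 was lower (Apln), where 19.8% were. The remaining 5, Tek, Angpt1, Aplnr, Adm and Ramp2, gave intervals that held equality. The median size of the difference was 0.11 on the log2 scale over the 9 genes and 0.098 over all genes tested. Angpt2 was the only one of them at least 1.5-fold higher in replicate 2, as 1.34% of all genes were, and none was at least 1.5-fold lower, as 0.61% were. In bulk RNA, fewer cells of a type and less RNA per cell cannot be told apart.

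Angpt2 had 248 counts in replicate 2 and 128 counts in replicate 1, a fold of 1.86 (1.501 to 2.328), and its difference was larger than those of 99.4% of genes. The 95% bounds that the deposited tables give for its TPM, 3.02 to 4.36 in replicate 2 and 1.52 to 2.62 in replicate 1, did not overlap. Angpt2 lies on the minus strand within Mcph1 on the plus strand, with 0 shared exon bases, and whether counting used strand is not given in the sources used here. Mcph1 was at 8.78 TPM in replicate 2 and 10.2 TPM in replicate 1, opposite to the direction of Angpt2. Its part in the Angpt2 counts was not tested.

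Tie1 had 3067 counts in replicate 2 and 2327 in replicate 1, a fold of 1.27 (1.20 to 1.34), against Tek with 4209 counts in replicate 2 and 4143 in replicate 1, a fold of 0.978 (0.937 to 1.02). The intervals of these partner receptors did not overlap. Calcrl had 2488 counts in replicate 2 and 2088 in replicate 1, a fold of 1.15 (1.08 to 1.22), while its partner Ramp2 had a fold of 1.02 (0.976 to 1.07), and these intervals did not overlap either. Apln had 234 counts in replicate 2 and 272 in replicate 1, a fold of 0.829 (0.693 to 0.990), the sole member called lower. That call was lost when counts were scaled by the total gene count or by the spike-ins. Ramp3 had a fold of 1.67 (1.13 to 2.51) on its low counts. Adm had 311 counts in replicate 2 and 277 in replicate 1, a fold of 1.08 (0.916 to 1.28), so its interval reaches differences to either side.

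**Figure D3:**
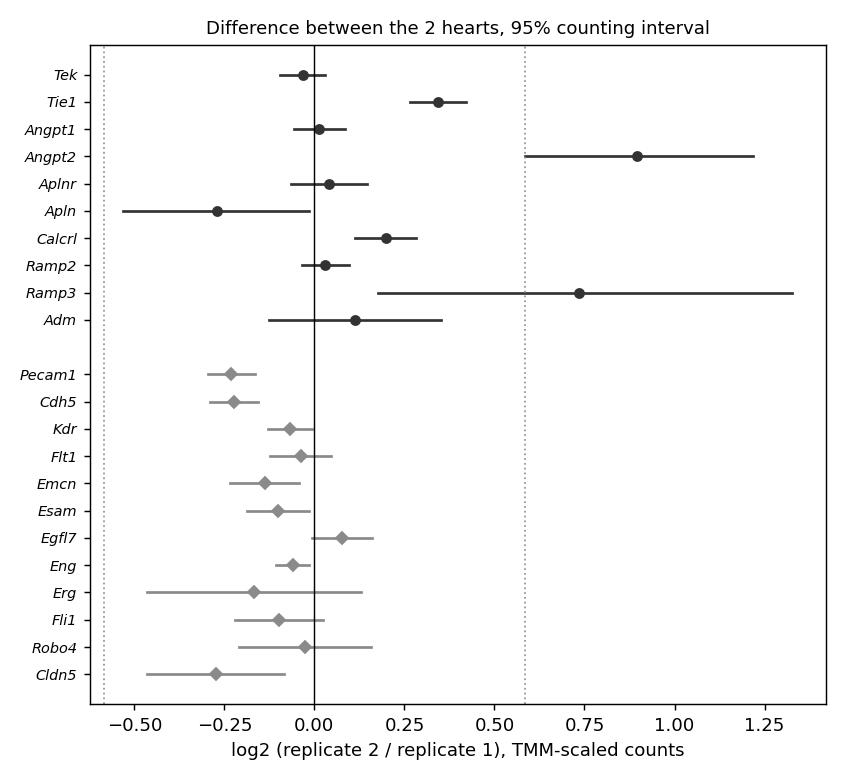
Difference between the hearts as log2 of replicate 2 over replicate 1 with its 95% counting interval, for the 10 genes (circles) above 12 pan-endothelial genes (diamonds). Dotted lines mark 1.5-fold. Angpt2 is farthest to the right of the 9 genes with enough counts, and no pan-endothelial gene has an interval wholly above 0.

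The levels were set against 12 genes of endothelial cells in general, all of them detected in both hearts. With TMM scaling none of the 12 was higher in replicate 2 and 7 were lower, where 19.8% of all genes were lower. Their median difference was -0.0998 on the log2 scale. It ranged from -0.27 for Cldn5 to 0.076 for Egfl7, the most abundant of the 12. Spike-in scaling raised the median of all genes by 0.11 (log2), which is more than the size of that difference. Calls of the 12 under spike-in scaling were not counted. Pecam1, the endothelial adhesion molecule CD31, had a fold of 0.852 (0.815 to 0.892), and Cdh5, VE-cadherin, a fold of 0.857 (0.818 to 0.898). After Cldn5, Pecam1 and Cdh5 had the lowest folds of the 12. The 12 had a geometric mean of 30.3 TPM in replicate 2, against 31.8 TPM in replicate 1. Relative to it, Tie1 was 0.42 higher on the log2 scale in replicate 2 than in replicate 1, Calcrl 0.38 and Angpt2 1.02 higher, and Tek 0.09, Aplnr 0.10 and Ramp2 0.12 higher. Apln was the only member lower, at -0.15, and against Pecam1 alone this was -0.032. The value of Calcrl uses gene TPM, 42.8 in replicate 2 against 34.6 in replicate 1, part of it from a short non-coding transcript. The coding transcripts of Calcrl were at 27.8 TPM in replicate 2 against 23.5 TPM in replicate 1. The pan-endothelial gene nearest in level was Cdh5 for Tek, Kdr for Tie1, Angpt1 and Calcrl, Flt1 for Aplnr, Cldn5 for Adm, Egfl7 for Ramp2, and Erg for Angpt2, Apln and Ramp3. With 2 libraries no likeness of pattern across samples can be measured.

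Several other cell markers differed between the libraries in the same comparison. Erythroid genes were lower, 6 of 6, with a summed level of 32887 TPM in replicate 2 against 58886 TPM in replicate 1; the alpha and beta globin genes have near-identical copies among which reads are shared. Capillary genes were lower, 4 of the 4 with enough counts, with a summed level of 296 TPM in replicate 2 and 328 TPM in replicate 1. Neural genes were higher, 3 of the 3 with enough counts (Tubb3 3.86-fold, Stmn2 3.36-fold and Ngfr 2.30-fold), at a summed 13.2 TPM in replicate 2 against 4.18 TPM in replicate 1. Endocardial genes summed to 148 TPM in replicate 2 against 137 TPM in replicate 1 (2 of 6 higher, 0 lower). Of 3 venous genes, Nr2f2, a transcription factor of vein identity, was higher at 19.4 TPM in replicate 2 against 15.4 TPM in replicate 1, Nrp2 was lower at 4.71 TPM in replicate 2 against 5.78 TPM in replicate 1, and Ephb4 was not called. Arterial genes summed to 114 TPM in replicate 2 against 112 TPM in replicate 1, with 0 of 7 higher and 2 lower, the Notch ligand Dll4 and the kinase Bmx. Lymphatic genes summed to 83.4 TPM in replicate 2 against 72.7 TPM in replicate 1 (1 higher and 1 lower of 6). The part of these cells in the differences of Angpt2, Tie1, Calcrl and Apln was not tested.

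Cells other than the endothelium are possible sources of some members, and their markers were present as well. Mural genes, of pericytes and smooth muscle, summed to 173 TPM in replicate 2 and 178 TPM in replicate 1, with 1 of 8 higher and 3 lower. Cardiomyocyte genes summed to 16033 TPM in replicate 2 against 16249 TPM in replicate 1, with 2 of 6 higher and 4 lower. Epicardial genes summed to 149 TPM in replicate 2 against 125 TPM in replicate 1, with 2 of 5 higher, among them Upk3b at 1.51-fold, and 0 lower. Macrophage genes summed to 90.4 TPM in replicate 2 against 97.2 TPM in replicate 1 (0 of 7 higher, 3 lower), and megakaryocyte and platelet genes, whose cells store Angpt1, to 43.1 TPM in replicate 2 against 42.7 TPM in replicate 1, with none of the 3 testable genes called.

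The companions of each system were mostly detected. Of 19 angiopoietin-Tie companions, 17 were at 1 TPM or more in both hearts, and of the 16 with enough counts 4 were higher in replicate 2 and 4 lower. The most abundant were Itgb1, the beta 1 integrin subunit, at 325 TPM in replicate 2 against 339 TPM in replicate 1, the kinase Akt1 at 142 TPM in replicate 2 against 127 TPM in replicate 1, and the adaptor Grb14 at 93.96 TPM in replicate 2 against 89.85 TPM in replicate 1. Ptprb, the endothelial phosphatase that removes phosphate from Tek, was at 4.52 TPM in replicate 2 against 4.90 TPM in replicate 1, with a fold of 0.891 (0.821 to 0.968). Angpt4, the third ligand, had 12 counts in replicate 2 and 2 in replicate 1.

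Of 14 apelin companions, 13 were detected, and of the 12 with enough counts 4 were higher in replicate 2 and 0 lower. Arrb2, a beta-arrestin that binds active receptors, was at 6.70 TPM in replicate 2 against 4.20 TPM in replicate 1, a fold of 1.60 (1.29 to 2.00). Furin, a protease that processes precursors, was at 19.6 TPM in replicate 2 against 14.0 TPM in replicate 1, a fold of 1.36 (1.26 to 1.46). Gnai2, a G protein subunit, led the list at 318 TPM in replicate 2 against 295 TPM in replicate 1.

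Of 13 companions of adrenomedullin and CGRP, 10 were detected, and of the 9 with enough counts 4 were higher and 2 lower. Gnas, the stimulatory G protein subunit through which Calcrl signals, was at 1224 TPM in replicate 2 against 1185 TPM in replicate 1, a fold of 1.00 (0.987 to 1.01). Pam, which amidates the peptide's end, was at 522 TPM in replicate 2 against 477 TPM in replicate 1. Ackr3, a receptor that takes up adrenomedullin, was at 39.7 TPM in replicate 2 against 32.3 TPM in replicate 1, a fold of 1.20 (1.13 to 1.27), close to the level of Calcrl. Gpr182, an atypical receptor, was at 7.28 TPM in replicate 2 against 4.72 TPM in replicate 1, a fold of 1.49 (1.31 to 1.70). Ackr3, Gpr182 and Calcrl were thus all higher in replicate 2. Of 12 genes of the response to low oxygen, a response that also raises Adm and Apln in many cells, 1 was higher (Bnip3) and 1 lower (Pdk1) of 10 with enough counts.

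The reads of Ramp2 were split among 8 annotated transcripts. Ramp2-204, coding, was at 88.7 TPM in replicate 2 and 75.4 TPM in replicate 1, which is 39.8% of the gene in replicate 2 against 35.0% in replicate 1. Ramp2-205, annotated as a retained intron, was at 84.8 TPM in replicate 2 against 88.6 TPM in replicate 1, or 38.1% in replicate 2 against 41.1% in replicate 1. The leading transcript by TPM therefore differed between the hearts, but the order of these models in replicate 2 is unsure. There Ramp2-204 had 2013 counts with a deposited SD of 58.96, and Ramp2-205 had 1170 counts with a deposited SD of 65.2. By counts Ramp2-204 led in both hearts, at 52.0% in replicate 2 against 46.6% in replicate 1. Ramp2-205 has 755 bases, of which 633 lie in exons of Ramp2-204 and 122 are the end of intron 1, whose last bases are printed above. Only those 122 bases are its own, and it lacks exon 1, which has 545 bases in Ramp2-204. All coding transcripts together held 54.1% of the gene's TPM in replicate 2 and 51.8% in replicate 1, which is 121 TPM in replicate 2 against 112 TPM in replicate 1. The coding level of Ramp2 alone was still the highest of the 10 genes. Ramp2-203 runs on into Vps25, a neighbour on the same strand with 1103 shared exon bases, which was at 95.8 TPM in replicate 2 against 86.9 TPM in replicate 1.

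**Figure D4:**
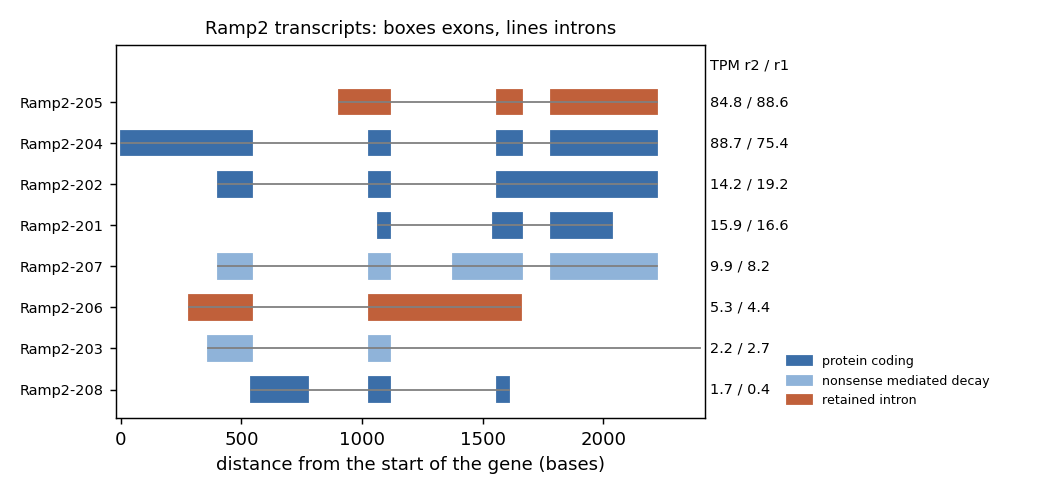
Exons (boxes) and introns (lines) of the Ramp2 transcripts by distance in bases from the start of the gene, coloured by annotated type and ordered by mean TPM, with the TPM of replicate 2 and replicate 1 at the right. Ramp2-203 runs on past the right edge. Ramp2-205 begins in intron 1 and shares its other exons with Ramp2-204.

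Calcrl had a split of another kind. Calcrl-202, coding, held 53.4% of the gene's TPM in replicate 2 against 53.8% in replicate 1. Calcrl-203, a non-coding processed transcript of 500 bases, held 35.0% of the TPM in replicate 2 against 32.2% in replicate 1. Of the counts it held 5.08% in replicate 2 against 4.48% in replicate 1, since TPM weights a short model up. All 500 bases lie in exons of Calcrl-201, and the model skips exon 2 of it, 68 bases. The coding transcripts of Calcrl together reached 27.8 TPM in replicate 2 and 23.5 TPM in replicate 1, below the gene totals of 42.8 TPM in replicate 2 against 34.6 TPM in replicate 1. By that measure Calcrl was below Angpt1 in both hearts.

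For the Tie receptors the coding models led. Of Tek, Tek-203 held 74.8% in replicate 2 against 69.1% in replicate 1, and Tek-202, which skips its exon 4 of 153 bases, held 13.3% in replicate 2 against 14.3% in replicate 1. Tie1-201 held 83.5% in replicate 2 and 73.2% in replicate 1, and Tie1-202, a processed transcript, 11.7% in replicate 2 against 20.7% in replicate 1. The coding level of Tie1 was thus 33.4 TPM in replicate 2 against 23.6 TPM in replicate 1, farther apart between the hearts than the gene total. That wider gap rests on the split between similar models, as 2485 of the 2851 bases of Tie1-202 lie in exons of Tie1-201. Tie1-202 had 257 counts (deposited SD 30.8) in replicate 2 and 353 counts (deposited SD 44.95) in replicate 1. The wider gap is therefore unsure. Aplnr-201 held 97.5% in replicate 2 against 93.3% in replicate 1, Adm-201 94.9% in replicate 2 against 94.7% in replicate 1, and the reads of Angpt1, Angpt2, Apln and Ramp3 were assigned to 1 transcript each. Angpt1 shares 737 exon bases with the antisense gene Gm17473, which was at 0.82 TPM in replicate 2 against 0.92 TPM in replicate 1.

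**Figure D5:**
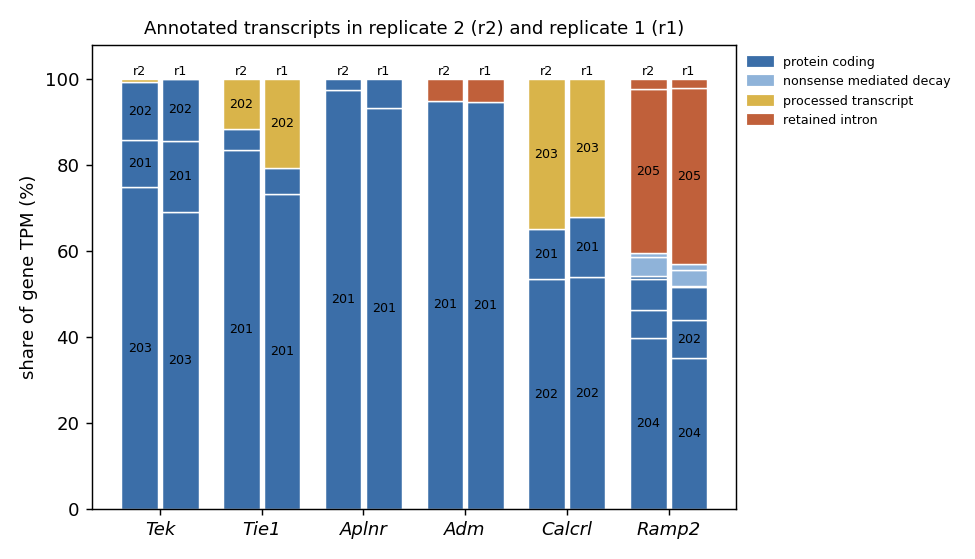
Share of each gene's TPM (%) held by its annotated transcripts in replicate 2 (r2, left bar) and replicate 1 (r1, right bar), coloured by annotated type, with transcript numbers where the share is large. Ramp2-205 and Calcrl-203 are large non-coding shares in both hearts, and Tie1-202 is larger in replicate 1.

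Promoter windows of 300 bases (250 before and 50 after the RefSeq start, GRCm38.p6) were available for 6 of the 10 genes. They were searched on both strands for AGGAAG, a core that ETS factors of endothelial cells bind, for ACGTG or GCGTG, the core of the hypoxia response element, and for GGGCGG, the SP1 core. Matches of different motifs can share a letter at their ends. AGGAAG was in 4 of the 6 windows (Tie1, Apln, Calcrl, Ramp3) and in 35.4% of 32851 promoters. The hypoxia core was in 3 of the 6 (Adm, Calcrl, Ramp3) and in 43.8% of promoters, and GGGCGG in 4 of the 6 and 35.7%. The window of Tek held none of them. Such matches are letters and not shown to be bound. For Tie1 and Calcrl the RefSeq start lies inside the GENCODE M21 gene, which ends at 118490061 for Tie1 and at 84425411 for Calcrl. Much of these 2 windows is therefore within the annotated gene and not before it. Of the called members, AGGAAG was in the windows of Tie1 and Calcrl, called higher, and of Apln, called lower, and Angpt2 had no window. Whether the motif bears on the differences was not tested. The windows of Tie1, Calcrl and Adm are printed. The first 2 have AGGAAG or its reverse complement in capitals, and Adm has the reverse complement of the hypoxia core in capitals.
Tie1, chr4:118489800-118490099, minus strand: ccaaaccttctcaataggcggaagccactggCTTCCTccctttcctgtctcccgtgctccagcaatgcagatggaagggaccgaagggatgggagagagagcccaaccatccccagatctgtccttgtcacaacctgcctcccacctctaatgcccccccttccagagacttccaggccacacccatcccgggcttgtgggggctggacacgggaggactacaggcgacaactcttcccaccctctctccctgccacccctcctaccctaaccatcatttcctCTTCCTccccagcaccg
Calcrl, chr2:84425217-84425516, minus strand: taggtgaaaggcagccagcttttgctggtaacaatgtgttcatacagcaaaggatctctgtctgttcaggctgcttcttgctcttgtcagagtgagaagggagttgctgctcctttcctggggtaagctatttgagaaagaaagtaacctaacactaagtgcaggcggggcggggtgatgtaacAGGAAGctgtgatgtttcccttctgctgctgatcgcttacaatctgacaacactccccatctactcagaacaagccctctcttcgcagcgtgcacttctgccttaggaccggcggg
Adm, chr7:110627407-110627706, plus strand: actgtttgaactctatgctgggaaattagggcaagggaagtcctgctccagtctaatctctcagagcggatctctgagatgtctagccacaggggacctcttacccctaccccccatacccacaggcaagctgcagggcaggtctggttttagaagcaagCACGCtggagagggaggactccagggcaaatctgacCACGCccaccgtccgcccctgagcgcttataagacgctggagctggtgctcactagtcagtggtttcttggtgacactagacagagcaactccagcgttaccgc

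The libraries were of like depth, 28958839 expected counts in replicate 2 and 28537173 in replicate 1, and spike-ins took 3.55% in replicate 2 against 3.74% in replicate 1. At this depth 1 count per kilobase of transcript was worth 0.0475 TPM in replicate 2 against 0.0478 TPM in replicate 1. The lowest count among the 10 genes was 42, of Ramp3 in replicate 1. The intervals take reads as independent molecules, which amplified reads without molecular tags are not.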

How the data were processed

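Each heart had a deposited gene table and transcript table, made by the authors on mm10 with GENCODE M4, per the readme deposited beside them. Which aligner, quantifier and strand setting were used is not given in the sources used here; the columns carry the names that RSEM writes. The deposited expected counts are estimated counts that share reads among transcripts. The deposited TPM values were scaled by the authors over all rows, spike-ins included, and the deposited isoform percent is a transcript's share of its gene. Symbols and coordinates were taken from GENCODE M21 (GRCm38) by unversioned identifier.

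Expected counts were rounded and scaled by TMM in edgeR 4.0.16 (R 4.3.3). Folds used a prior of 0.5 and exact Clopper-Pearson 95% intervals. The intervals were tested on simulated counts that held counting error only, at a known scaling, as the intervals assume. That test cannot speak to other sources of difference between the libraries. A gene counted as higher or lower where the interval left out equality, at a mean count of at least 100, and as far apart at 1.5-fold. Levels are mean TPM ± SD over 2 libraries. The libraries are separate hearts in 1 group, so no p-value was computed. Alternatives were DESeq2 1.42.0 size factors, total-count and spike-in scaling, other minimums, posterior mean TPM, TPM over gene rows, and leading transcripts.

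The members, 9 pairs and 17 companion and marker lists were chosen with earlier results of these data known. Most named genes were drawn by rule from all members, the highest 3 of a list at most, its genes at least 1.5-fold apart, the companion ligands and receptors, and the pan-endothelial gene nearest each member. Of those besides the members, only some are given with values. Furin, Dll4, Bmx and Pdk1 fall outside this rule, and each of them was called higher or lower. Pecam1, also outside it, is given as a yardstick, and genes that overlap a member are named for that overlap.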

Additional observations from a re-analysis of the deposited data

How the results depend on the processing

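Between the hearts, scaling mattered most. With spike-in scaling, which moved the median of all genes by 0.11 (log2), 7 of the 9 members were higher in replicate 2 in place of 3, and 0 were lower in place of 1, where 44.1% of all genes were higher and 5.12% lower. Tek was at 0.080 in place of -0.032 (log2). With the total gene count 3 were higher and 0 lower (23.5% and 14.3% of all genes), and with DESeq2's size factors 3 were higher and 1 lower (17.2% and 20.05%). Members at least 1.5-fold apart numbered 2 with a mean count of at least 10 or with no minimum, since Ramp3 joined Angpt2, and 4 members were then higher. With detection set at 5 TPM, 7 members passed in place of 10. With leading transcripts in place of gene totals, the log2 ratio of Tek to Angpt1 was -0.20 in place of 0.28, and Calcrl to Adm 0.94 in place of 1.76. The leading transcript is the one of highest mean TPM share, for Ramp2 the non-coding Ramp2-205 (39.6%, against 37.4% for coding Ramp2-204). With that non-coding model, Ramp2 to Ramp3 was 5.22 in place of 6.56 and Ramp2 to Ramp1 1.48 in place of 2.33. Calcrl to Ramp2 was then -2.07 in place of -2.51. Among single-gene differences between the hearts, spike-in scaling gave a call to Tek, Angpt1, Aplnr and Ramp2, and Apln lost its call under 2 scalings. The level relative to the endothelium depended on its yardstick. Against the pan-endothelial mean, Tek, Tie1, Angpt1 and Calcrl stood at 0.53, 0.11, 0.25 and 0.31 (log2), but against Pecam1 alone at -0.38, -0.80, -0.66 and -0.60, and Tie1, Angpt1 and Calcrl were also below Cdh5. No paired analysis was possible because there is 1 group with 1 library per heart. Leaving out a replicate leaves a single library and no SD or fold. Angpt2, Apln and Ramp3, with 42 to 272 counts per library, are the members whose values depth limits most.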
